A study of Xenopus laevis with 4 samples.

Results

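The transcription factors foxj1, foxn4 and rfx2, which switch on the genes of motile cilia, were followed in ectodermal explants, called animal caps, from embryos of the frog Xenopus laevis. The members are the probe sets whose single gene symbol in the platform annotation is foxj1.L (Entrez Gene 399038), foxj1.S (399039), foxj1.2.L (734957), foxn4.S (733405) or rfx2.S (735210). There was 1 probe set for each, so 5 of the 11303 gene symbols that have a probe set of their own, and of the 32635 probe sets in the table, are described. All 5 passed the filter on dim probe sets, which used the mean signal of the 4 arrays. foxj1.2.L passed it only through its DBM and HMM signals. Xenopus laevis is allotetraploid, its homeologs carry the ending L or S, and foxj1.2.L is a paralog of foxj1. The RefSeq gene table also lists foxn4.L and foxj1.2.S, which were not analysed here.

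Synthetic RNA was injected into every embryo when it had 2 cells, and the caps were cut at stage 9 to 10, cultured on fibronectin and taken for total RNA at the equivalent of stage 12. Bovine serum albumin at 0.1% was recorded for all 4 samples. Of the 4 Affymetrix arrays, 2 held caps injected with ICD, 1 with DBM and 1 with HMM. By common usage ICD stands for the Notch intracellular domain, which signals without ligand. DBM commonly stands for a form of the Notch effector Su(H) that cannot bind DNA and so blocks the pathway. The labels do not say what HMM stands for. By its title, the study looked for early Notch targets with a part in multiciliate cell fate. No array of uninjected caps is among these, so each difference is between injected groups, and an RNA dose per embryo was not given in the sources used here.

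The ectoderm of the Xenopus embryo forms a mucociliary epidermis, in which Notch signaling limits how many inner-layer cells become multiciliate cells or ionocytes. In a cell that escapes Notch, multicilin (mcidas) starts the multiciliate program and raises regulators of the cilium itself. Foxj1 is the forkhead factor that drives genes of motile cilia, Rfx2 is an RFX factor that drives genes of cilium assembly and intraflagellar transport, and Foxn4 is a forkhead factor that in Xenopus acts together with Foxj1 on motile cilia genes.

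Each probe set has a MAS5 signal, a linear intensity. The 2% trimmed mean of the signals was 150.7 on ICD replicate 1, a dim array, and 376.8 to 408.9 on the other 3. On that array the hybridization spike-ins were at 111% and the poly-A spike-ins at 35.7% of the other arrays, and the part of this in the results was not tested. The arrays were rescaled to a common trimmed mean, and signals below are on that rescaled scale unless called deposited. Differences were taken on log2(signal + 17.99) and tested with limma over 19523 probe sets, with Benjamini-Hochberg adjustment and a threshold of 0.05. A difference on this scale understates the change of dim probe sets. The spread in the test comes from the 2 ICD arrays alone, and nothing in the labels says that these came from separate clutches, so the p-values may measure technical spread only. Calls close to the threshold are uncertain, since 1 residual degree of freedom determines the fitted spread poorly. Over the tested probe sets, ICD replicate 1 correlated more with HMM (r = 0.938) than with DBM (0.912), and ICD replicate 2 more with DBM (0.928) than with HMM (0.896). The labels name no batch or clutch, and whether these arrays shared one was not tested. The injected activity showed in the Notch readouts. Of 15 such genes measured 12 rose with ICD relative to the average of DBM and HMM and 1 fell, where 1.9% and 2.04% of all probe sets did. hes5.2.L, a Hairy/Enhancer-of-split repressor gene, had signals of 4120 and 4529 with ICD, 27.2 with DBM and 9.23 with HMM. It passed the filter on dim probe sets only through its ICD signals. The gene that fell was hes1.L, 9.47-fold lower (limma, adjusted p = 0.00215), and its homeolog hes1.S (log2 difference -1.29) did not pass.

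All 5 ciliogenesis factor probe sets were lower with ICD than with DBM or HMM. On both ICD arrays each of them lay below the DBM array and the HMM array, and this held in the deposited signals as well as after rescaling. After rescaling, 22.8% of all tested probe sets had both ICD arrays below both other arrays. That share was not taken in the deposited signals, where the median difference of all probe sets was itself -0.665. Against the mean of DBM and HMM all 5 fell past the threshold (limma, adjusted p between 0.00187 and 0.0468), where 2.04% of all probe sets did. The median log2 difference was -2.72 for the 5 and -0.01 for all tested probe sets. In these bulk explants, fewer cells of a type and less RNA per cell cannot be told apart.

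**Figure D1:**
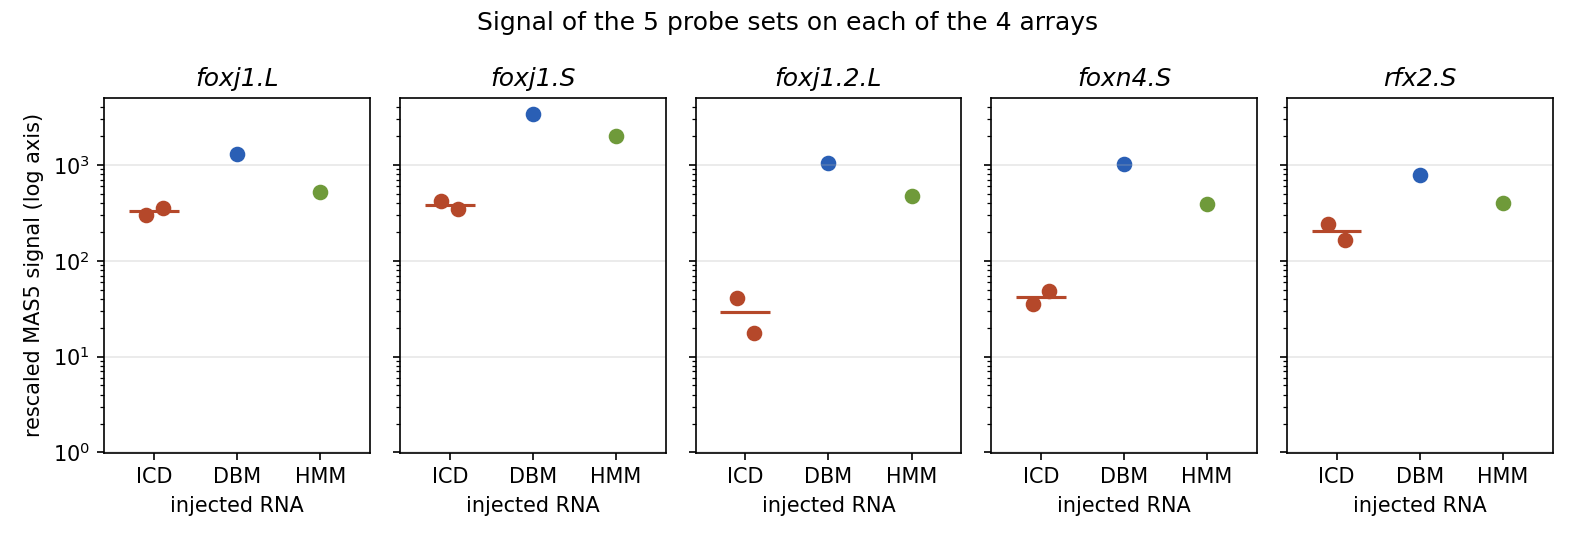
Rescaled MAS5 signal (log axis) of each probe set by injected RNA. Points are single arrays and the bar is the mean of the 2 ICD arrays. In every panel both ICD points lie under the DBM and HMM points, and the DBM point is 1.68 to 2.61 times the HMM point.

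The foxj1.L probe set had signals of 296.8 and 358.2 with ICD, 1289 with DBM and 527.5 with HMM. Both ICD arrays were lowest, but the step up to HMM was small, the ICD mean of 327.5 ± 43.4 (SD, n = 2) being 25.4% of the DBM signal and 62.1% of the HMM signal. The log2 difference from the mean of DBM and HMM was -1.30 ± 0.23 (SE), a 2.45-fold drop (limma, adjusted p = 0.0319).

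The other copy, foxj1.S, had signals of 420.3 and 345.2 with ICD, 3385 with DBM and 2018 with HMM. Here the groups stood far apart, with the ICD mean of 382.8 ± 53.1 (SD, n = 2) at 11.3% of DBM and 19.0% of HMM. foxj1.S fell by 2.72 ± 0.22 (SE) on the log2 scale, or 6.60-fold (limma, adjusted p = 0.00187), and ranked 50 from the lowest of the 19523 probe sets.

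The paralog foxj1.2.L had signals of 41.3 and 17.5 with ICD, 1047 with DBM and 471.7 with HMM. Its ICD signals lay under the level of the filter on dim probe sets (41.37) and near the offset, so the size of the drop depends on the offset. The ICD mean of 29.4 ± 16.9 (SD, n = 2) was 2.81% of DBM and 6.24% of HMM. The log2 difference of -3.98 ± 0.36 (SE), 15.7-fold, was the largest of the 5 with all arrays (limma, adjusted p = 0.00305). When ICD replicate 2 was left out and the DBM and HMM arrays were pooled, foxj1.2.L stood at -3.61 and foxn4.S at -3.62. The value for foxj1.2.L was -2.95 with the offset raised to 1 times the median and -4.52 with it at 0.05 times.

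foxn4.S had signals of 35.0 and 47.9 with ICD, 1020 with DBM and 390.8 with HMM. As for foxj1.2.L, ICD signals were close to the filter level while DBM and HMM were well above it. The ICD mean was 41.5 ± 9.16 (SD, n = 2), 4.06% of DBM and 10.6% of HMM. foxn4.S fell by 3.46 ± 0.30 (SE) on the log2 scale, 11.02-fold (limma, adjusted p = 0.00277). The size again depends on the offset, at -2.65 with 1 times the median and -3.83 with 0.05 times.

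rfx2.S had signals of 244.3 and 163.9 with ICD, 787 with DBM and 399.9 with HMM. Its order was that of foxj1.L, with ICD lowest and HMM not far above. The ICD mean of 204.1 ± 56.9 (SD, n = 2) was 25.9% of DBM and 51.0% of HMM. The log2 difference of -1.41 ± 0.28 (SE), 2.66-fold, lay just past the threshold (limma, adjusted p = 0.0468). With any 1 array left out it was not past it, at -1.88 to -0.94. The settings without an ICD array also took DBM and HMM as 1 group. That grouping alone, on all 4 arrays, lost the call (limma, adjusted p = 0.16).

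The ICD arrays differed from each other without a common direction. foxj1.S, foxj1.2.L and rfx2.S were higher on ICD replicate 1, and foxj1.L and foxn4.S on ICD replicate 2. The gap between the ICD arrays was widest for foxj1.2.L, at 0.74 on the log2 scale, a larger gap than that of 87.8% of probe sets, and narrowest for foxj1.L, at -0.26. For every member the distance from the higher ICD array to the lower of DBM and HMM was wider than that gap. It was 3.05 for foxj1.2.L, 2.63 for foxn4.S and 2.22 for foxj1.S on the log2 scale, but 0.67 for rfx2.S and 0.54 for foxj1.L. For rfx2.S the gap between the ICD arrays was 0.53, not far below that distance. The share of all probe sets with a distance wider than their gap was not taken. Both ICD arrays lay below both other arrays for 22.8% of them.

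Against DBM and HMM taken singly, the members differed in which comparison they passed. Against DBM all 5 fell (limma, adjusted p between 0.00446 and 0.0487), where 1.48% of probe sets did. The log2 differences were -4.54 for foxj1.2.L, -4.13 for foxn4.S, -3.09 for foxj1.S, -1.93 for foxj1.L and -1.88 for rfx2.S. Against HMM 3 of 5 fell, where 0.507% of probe sets did. These were foxj1.2.L (-3.42 ± 0.44 SE, adjusted p = 0.0164), foxn4.S (-2.79 ± 0.37, adjusted p = 0.0189) and foxj1.S (-2.35 ± 0.27, adjusted p = 0.0115). foxj1.L had a value of -0.66 ± 0.28 (adjusted p = 0.407) and rfx2.S of -0.94 ± 0.35 (adjusted p = 0.325) in that comparison, so neither passed. Both comparisons share the ICD arrays.

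**Figure D2:**
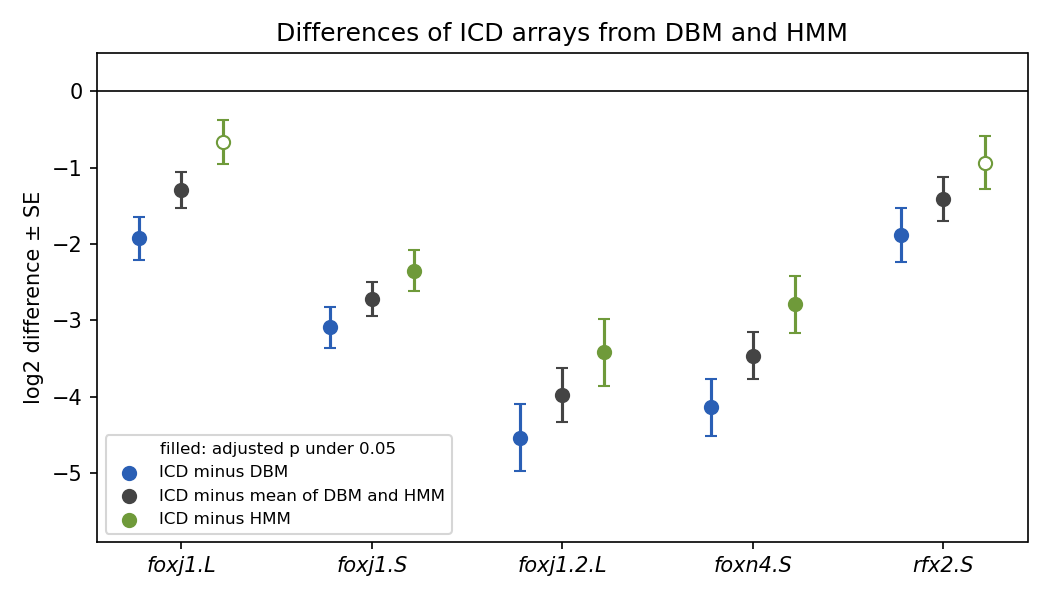
Log2 difference of the ICD arrays from DBM, from the mean of DBM and HMM, and from HMM for each probe set, with SE bars from the limma fit. Filled points passed an adjusted p of 0.05. The open points are foxj1.L (-0.66) and rfx2.S (-0.94) against HMM.

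The DBM array was above the HMM array for all 5. With 1 array on each side there is no test. The DBM signal was 2.61 times the HMM signal for foxn4.S, 2.44 times for foxj1.L, 2.22 times for foxj1.2.L, 1.97 times for rfx2.S and 1.68 times for foxj1.S. On the log2 scale these differences were 1.34, 1.26, 1.12, 0.95 and 0.74. All 5 exceeded 1.5-fold, where 11.3% of all probe sets did and 48.2% of the 398 probe sets that were lower with ICD. In the deposited signals, with no rescaling, the ratios were 1.80 to 2.79. The order of the conditions was therefore DBM, HMM and then ICD for each member, but the step from HMM to ICD did not pass the test for foxj1.L and rfx2.S. ICD replicate 2 correlated more with DBM and replicate 1 more with HMM. After rescaling, foxj1.L and foxn4.S were higher on ICD replicate 2 and the other 3 were lower. In the deposited signals all 5 were higher on ICD replicate 2, the brighter array (trimmed mean 376.8, beside 150.7 on ICD replicate 1). The share of all probe sets with that order was not taken.

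**Figure D3:**
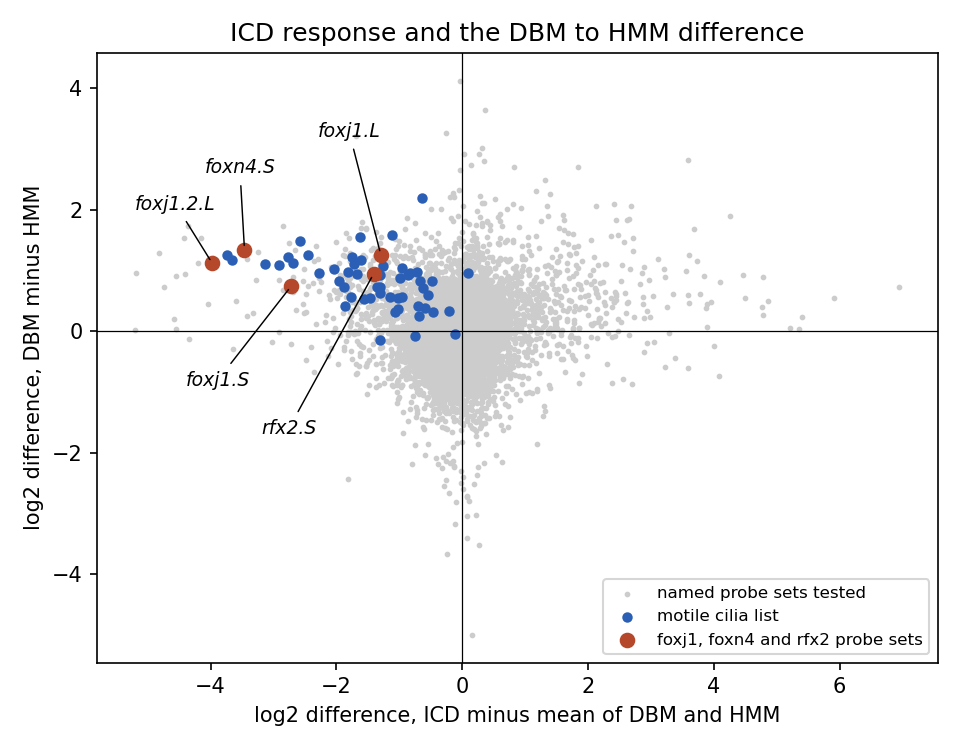
Log2 difference of DBM from HMM against log2 difference of ICD from the mean of DBM and HMM for the named probe sets tested (grey), the motile cilia list (blue) and the 5 members (red). All 5 members lie at the upper left, between -3.98 and -1.30 on the horizontal axis and between 0.74 and 1.34 on the vertical one.

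The rule sets the foxj1 copies side by side, so the size of the response was compared within arrays. For every gene with an L and an S probe set past the filter, the S minus L difference was taken on each array and fitted with limma, 1360 homeolog pairs in all, together with the differences of foxj1.2.L from both foxj1 copies. The log2 difference of foxj1.S from foxj1.L was 0.48 and -0.05 with ICD, 1.38 with DBM and 1.90 with HMM. Different probe sets have no common scale, so only the change between groups can be read. The response to ICD of the S copy minus that of the L copy was -1.43 ± 0.31 (SE; 95% interval -2.21 to -0.64, not adjusted), a difference wider than that of 96.8% of the pairs. It did not pass after adjustment (limma, adjusted p = 0.189), and 0.587% of the pairs did. The pairs include genes that did not respond to ICD, and the median absolute difference over all pairs was 0.22. How the foxj1 copies rank among pairs of responding genes was not tested.

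The paralog was set against both copies in the same way. foxj1.2.L minus foxj1.L was -2.41 and -3.41 with ICD, -0.30 with DBM and -0.16 with HMM. The response difference was -2.68 ± 0.44 (SE; interval -3.79 to -1.57; limma, adjusted p = 0.109). foxj1.2.L minus foxj1.S gave -1.25 ± 0.33 (SE; interval -2.09 to -0.42; adjusted p = 0.248). None of these 3 differences passed at the settings reported. With an offset of 1 times the median, foxj1.S minus foxj1.L (limma, adjusted p = 0.0411) and foxj1.2.L minus foxj1.L (0.0192) passed. The second also passed with quantile normalization (0.0307). More pairs were called in those settings, 36 with that offset and 20 with quantile normalization, beside 8 at the settings reported. At the same higher offset foxj1.2.L minus foxj1.S shrank to -0.39 (adjusted p = 0.817), and with 0.05 times the median it was -1.75. Probe sets of homeologs can share target sequence, and cross-hybridization between the foxj1 copies was not tested.

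**Figure D4:**
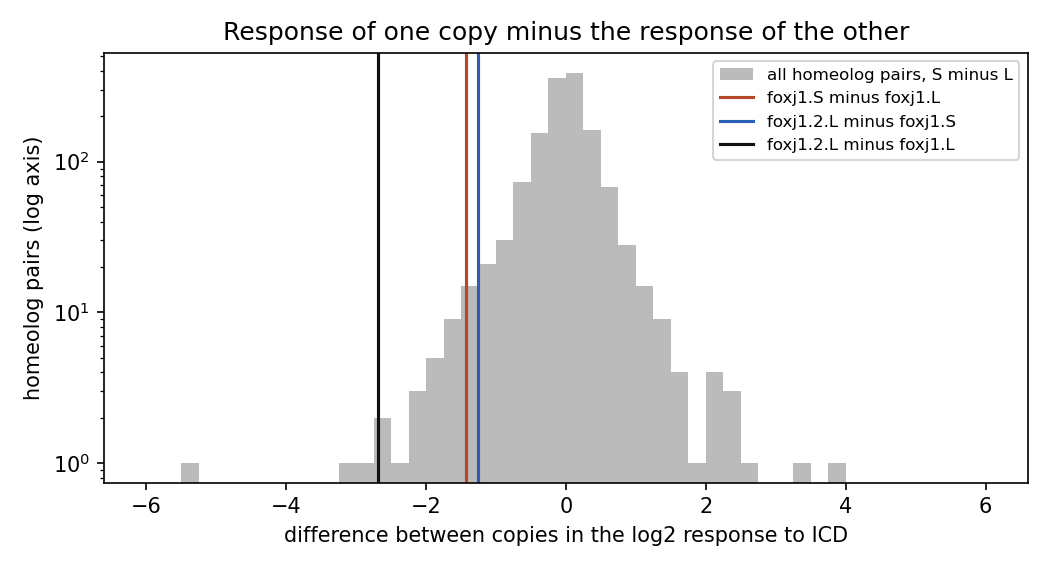
Histogram (log axis) of the difference between S and L copies in the log2 response to ICD over 1360 homeolog pairs, with foxj1.S minus foxj1.L (-1.43), foxj1.2.L minus foxj1.S (-1.25) and foxj1.2.L minus foxj1.L (-2.68) as lines. All 3 lines lie in the left tail of the distribution.

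Factors upstream of or beside the members went both ways. Of 10 other regulators of the multiciliate program that passed the filter, 3 fell, 3 rose and 4 did not pass (limma, ICD minus the mean of DBM and HMM), with a median of 0.14. Of all probe sets 2.04% fell and 1.9% rose. The 3 that fell were mcidas.S, the coactivator that starts the program, at signals of 5.47 and 21.2 with ICD, 1523 with DBM and 773.1 with HMM, and both copies of the cyclin gene ccno, which is needed for centriole amplification. ccno.L had 169.5 and 228.4 with ICD, 6916 with DBM and 3656 with HMM, and ccno.S had 61.2 and 90.1 with ICD, 2162 with DBM and 929.3 with HMM. Like the 5 members, these 3 were each at least 1.5-fold higher with DBM than with HMM. The ICD signals of mcidas.S lay under the filter level of 41.37, so it passed the filter only through DBM and HMM. The geminin copies gmnn.L and gmnn.S, a replication inhibitor related to mcidas, rose 12.1-fold and 9.30-fold (adjusted p = 0.00117 and 0.00119).

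Multicilin acts with E2F factors and their partners, and 1 of these genes rose. tfdp2.S, a dimerization partner of E2F factors, had signals of 1161 on both ICD arrays, 563.3 with DBM and 375.9 with HMM, and rose 2.46-fold (limma, adjusted p = 0.023). e2f4.S (log2 difference 0.30), mybl2.S (0.42), tfdp1.L (-0.20) and tfdp1.S (-0.02) did not pass.

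Relatives of the members in the same protein families mostly did not pass. The RFX list held rfx5.L (0.11) and rfxank.S (-0.13), factors of immune gene regulation in mammals, with limma adjusted p of 0.959 and 0.971. Of these only rfx5.L is a family relative of rfx2.S, and rfxank.S was listed by its name. Of 17 other forkhead genes measured, 1 fell and 2 rose, with a median of 0.09. Of all probe sets 2.04% fell and 1.9% rose. foxi1.L, the ionocyte regulator, fell 26.8-fold, and foxa2.L and foxi4.2.L rose 13.8-fold and 2.52-fold. With signals of 23.0 with DBM and 8.8 with HMM, foxa2.L passed the filter only through its ICD signals. The homeolog foxi4.2.S (log2 difference -0.18) did not pass (limma, adjusted p = 0.945). The closest relatives of foxn4 by name, foxn2.S and foxn3.S, had values of 0.09 and -0.92 and adjusted p of 0.972 and 0.301. They were named after their values were seen.

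A good part of the motile cilia genes, the class that Foxj1 and Rfx2 are known to drive, fell as well. Among 52 motile cilia genes, 20 fell and 0 rose against the average of DBM and HMM (limma), and 32 missed the threshold, with a median of -1.31. At an unadjusted p of 0.05, 41 were lower and 0 higher, where 2761 of all 19523 probe sets had such a p in either direction. All but 1 of the 52, the dynein light chain gene dynlrb2.S (0.10), had a negative value. The 20 ran from -3.73 to -1.31, and the members from -3.98 to -1.30. Both ranges hold only genes past the threshold, which in part sets their smallest drops. Over all 52 the values ran from -3.73 to 0.10, and the median of the members was -2.72. saxo2.L, a microtubule-associated protein gene, had signals of 53.6 and 55.0 with ICD, 1467 with DBM and 604.6 with HMM, 13.3-fold lower. cfap52.S, an axonemal protein gene, fell 12.7-fold, and the tektin genes tekt2.S and tekt4.S, whose products lie in the doublet microtubules of the axoneme, fell 8.83-fold and 7.57-fold. The ICD signals of cfap52.S (27.6 and 25.1) and tekt2.S (22.7 and 28.5) lay under the filter level of 41.37. The sizes of these drops therefore depend on the offset. The homeolog cfap52.L was 1.94-fold lower and did not pass (limma, adjusted p = 0.0637).

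Most motile cilia genes also had DBM above HMM, 49 of 52. Against DBM 21 of 52 fell and against HMM 6 did. In all, 35 of 52 were at least 1.5-fold higher with DBM than with HMM, where 11.3% of all probe sets were. Among the probe sets lower with ICD that share was 48.2%. Of the 52, 0 were 1.5-fold lower, where 11% of all probe sets were. The median DBM minus HMM difference was 0.85 on the log2 scale, beside -0.02 for all probe sets. The step was not particular to cilia genes. DBM was above HMM for 14 of 15 Notch readouts (median 0.54), 8 of 8 ionocyte, 6 of 6 small secretory and 4 of 4 basal cell markers. For endoderm markers it was 4 of 8, and for the other multiciliate regulators 5 of 10. The number of motile cilia calls depended on the DBM array, with 5 genes past the threshold without it and 20 without HMM. It also depended on the grouping. With DBM and HMM as 1 group on all 4 arrays, 7 passed (limma). Fewer passed when an ICD array was also left out. At an unadjusted p of 0.05, 38 were lower in that grouping of all 4 arrays, where 2780 of all 19523 probe sets had such a p in either direction.

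Genes of intraflagellar transport and the BBSome, the transport machinery of the cilium and the group most tied to RFX factors, had fewer calls. Their list also held genes that are subunits of neither, such as bbs10.L, bbs12.L, arl3.S and tulp3.L. Among the 24 genes of the list 4 fell, 0 rose and 20 missed the threshold (limma). At an unadjusted p of 0.05, 13 were lower and 0 higher, where 2761 of all 19523 probe sets had such a p in either direction. The median of the list was -0.64, beside -1.31 for the motile cilia genes. Whether the lists differ was not tested. The 4 were bbs12.L (4.88-fold), dync2i2.L (3.84-fold), a subunit gene of the transport dynein, ift52.L (2.81-fold), a subunit gene of the transport complex IFT-B, and arl3.S (2.73-fold), a small GTPase gene. rfx2.S itself, at 2.66-fold, had a drop of the size of the last 2. That likeness is among genes past the threshold only, which leaves out the smaller drops of the list. Without the DBM array 0 of 24 passed (5 lower at an unadjusted p), and without the HMM array 1 did (12 lower at an unadjusted p).

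The members differed in their profiles over the 4 arrays. Likeness was measured as the root mean square distance between log2 values, each centred on its own mean, over 10293 named probe sets. The values were not scaled, so a distance reflects the size of the drop as well as the shape of the profile. foxj1.L and rfx2.S were the closest pair among the 5, at 0.31, and foxn4.S and foxj1.2.L were next, at 0.46. foxj1.L and foxj1.2.L were the farthest apart, at 1.39, and the foxj1 homeologs were 0.76 apart.

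With 4 arrays many genes lie close to any profile, so the nearest genes are given as a description. Nearest to foxj1.L were ccdc63.L (0.04), a relative of the outer dynein arm docking genes, fam161a.L (0.05), a gene of the ciliary base, and tex26.L (0.07). Nearest to foxj1.S were astl2d.1.L and tbcel.L (both 0.10) and hand2.S (0.11). sox7.L (0.05), kit.S (0.22) and tsga10.L (0.27) were nearest to foxj1.2.L. The goblet cell lectin gene itln1.L (0.07), the repressor gene hes1.L (0.11) and saxo2.L (0.17) were nearest to foxn4.S. For rfx2.S they were agr2.L (0.05), gadd45g.S (0.10) and ppl.L (0.12). That ppl.L probe set had 253.9 and 195.4 with ICD, and the brightest ppl.L probe set had the opposite order, 248 and 342.4. The nearest genes thus included genes of other cell types beside cilia genes.

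Markers of other cells of the explant moved too, and their part in the members' values was not tested. Over all probe sets 2.04% fell and 1.9% rose. Of 8 ionocyte markers 6 fell (limma), with a summed signal of 504.7 and 442.6 with ICD, 9750 with DBM and 5897 with HMM. Of 12 goblet and outer layer markers 4 fell, with a summed signal of 77500 and 47950 with ICD, 88110 with DBM and 72380 with HMM. A sum mostly follows its brightest genes. Here the brightest was krt70.S (35170 and 18430 with ICD, 20120 with DBM, 20990 with HMM), which did not pass, while itln1.L fell 10.7-fold. Of 4 basal cell markers 3 rose, with a summed signal of 5381 and 6789 with ICD, 1642 with DBM and 1033 with HMM. The brightest was sox11.S (2731 and 3943 with ICD, 378 with DBM, 180.5 with HMM). tp63.S, which also rose, had 325 and 461.8 with ICD, 72.7 with DBM and 26.6 with HMM. Of 6 markers of small secretory cells 1 fell and 1 rose, with a summed signal of 3725 and 5198 with ICD, 5153 with DBM and 2340 with HMM. The brightest, agr2.S (log2 difference 0.96), did not pass, and its homeolog agr2.L (-1.46) was the one that fell. Of 7 neural markers 2 rose, with a summed signal of 4777 and 8689 with ICD, 2142 with DBM and 1531 with HMM. Of 8 endoderm markers 4 fell, with a summed signal of 419.2 and 454.1 with ICD, 1593 with DBM and 1471 with HMM. The 5 mesoderm markers, 0 of which passed (limma; 1 lower at an unadjusted p of 0.05), summed to 134.3 and 355.1 with ICD, 470.1 with DBM and 256.2 with HMM.

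The calls for foxj1.S, foxj1.2.L and foxn4.S held in more settings than those for foxj1.L and rfx2.S. Both ICD arrays lay below both other arrays for each member, so leaving out or regrouping arrays could not change a sign. Over 12 other settings, foxj1.S and foxj1.2.L passed in 10 each, foxn4.S in 9, foxj1.L in 5 and rfx2.S in 2, and each value stayed negative in all 12. Without the DBM array foxj1.L stood at -0.66 (limma, adjusted p = 0.445) and rfx2.S at -0.94 (adjusted p = 0.359). Without the HMM array foxj1.L passed (-1.93, adjusted p = 0.0291) and rfx2.S did not (-1.88, adjusted p = 0.0537). With the signals as deposited, 0 probe sets passed in any of the 3 comparisons, with 132, 88 and 56 at an unadjusted p of 0.05 against the mean, DBM and HMM.

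**Figure D5:**
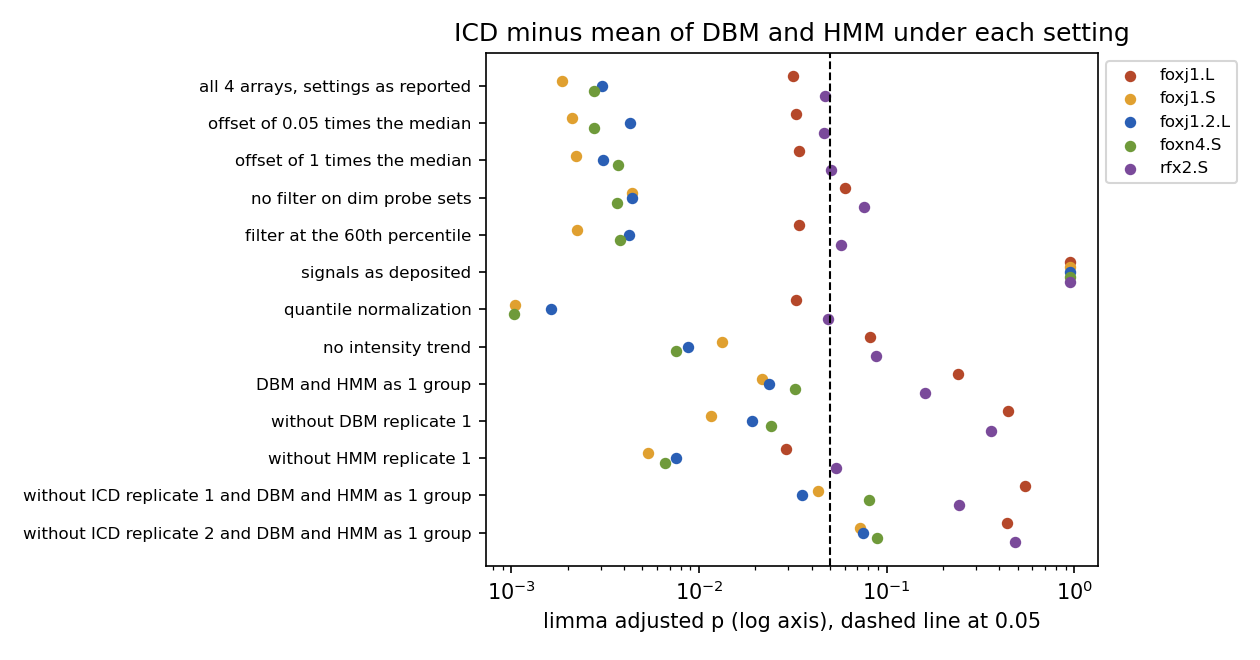
Limma adjusted p (log axis) of the 5 probe sets for ICD minus the mean of DBM and HMM under the reported settings (top) and 12 alternatives, with a dashed line at 0.05. foxj1.S, foxj1.2.L and foxn4.S lie left of the line in most settings, and foxj1.L and rfx2.S lie close to it or to its right.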

How the data were processed

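Per the submitters' processing notes, the deposited intensity values were made with MAS5, and each array has 1 linear signal for a probe set. The MAS5 version and scaling target are not given in the sources used here, and no detection call was used. Symbols were read from the platform's annotation and updated by Entrez Gene identifier, which changed 2 of them. Arrays were rescaled to a common 2% trimmed mean without the 96 control probe sets, since they differed by over 5%. The offset of 17.99 is 0.25 times the median signal, and probe sets with a mean under 41.37, the 40th percentile, were left out. limma 3.58.1 in R 4.3.3 was fitted with 1 mean per injected RNA and an intensity trend, two-sided, which leaves 1 residual degree of freedom and 5.82 prior ones. The lone DBM and HMM arrays are thus assumed to vary like the ICD pair. An exact permutation of 2 arrays against 2 cannot go below p = 0.333 and was not used. Lists used 1 probe set per gene, the brightest. Beside the members, the genes named were all measured regulators and RFX genes, up to 4 called genes of each other list with the largest difference, and the 3 nearest named genes of each member. Symbols with the prefix LOC, MGC or XB were not counted as named. The members and lists were chosen with earlier results of these data known. The fit was tested on simulated data, where it recovered most of the changed probe sets, but with 1 residual degree of freedom the prior degrees of freedom were poorly determined. They and the share of false calls varied between simulated sets, at times above the nominal share, so calls close to the threshold are uncertain. In the simulation all arrays had the same spread for a probe set, and DBM and HMM the same mean. It therefore could not test whether the lone DBM and HMM arrays vary like the ICD pair. The changes put into the simulation were all larger in size than the main differences of foxj1.L and rfx2.S. Recovery of changes as small as theirs was not tested. Figures were drawn with matplotlib 3.10.9. Precision is limited by the 4 arrays.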

Additional observations from a re-analysis of the deposited data

How the results depend on the processing

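No paired analysis was possible because the groups share only replicate number 1 in the labels. Directions of the 5 members held in all 12 alternatives to the main comparison, the 7 to each single comparison and the 4 to DBM against HMM, where each value moved by less than the SD of the ICD pair. Most of these settings could not reverse a direction. The filter, trend and grouping settings leave the value unchanged on all 4 arrays. Both ICD arrays lay below both other arrays for each member, so leaving out an array could not reverse it either. Of the calls against the mean of DBM and HMM, rfx2.S was lost with an offset of 1 times the median (-1.22) or a filter set at the 60th percentile (-1.41), and foxj1.L (-1.30) and rfx2.S (-1.41) without the filter, without the intensity trend and with DBM and HMM as 1 group. With signals as deposited foxj1.L, foxj1.S, foxj1.2.L, foxn4.S and rfx2.S stood at -1.98, -3.43, -4.57, -4.002 and -2.09, none past the threshold, and the median of all probe sets shifted to -0.67. Against DBM the deposited signals gave -2.66, -3.85, -5.18, -4.73 and -2.62 in the same order, and against HMM -3.01, -3.96 and -3.28 for foxj1.S, foxj1.2.L and foxn4.S. Their counts were 0 in each comparison (limma, with 132, 88 and 56 at an unadjusted p of 0.05). There the ICD arrays keep their difference in brightness, which enters the spread. Against DBM, rfx2.S was also lost with an offset of 0.05 times the median (-1.96) and the 60th percentile filter (-1.88), and foxj1.L (-1.93) and rfx2.S (-1.88) without the filter or the trend. Against HMM, foxj1.S (-2.35) was lost without the trend. The count against the mean, 768, was 411 with DBM and HMM as 1 group. The count against DBM, 452, was 220 without the filter and 223 without the trend, and that against HMM, 340, was 224 and 170. The difference of foxj1.S from foxj1.L passed with an offset of 1 times the median (-1.39), and that of foxj1.2.L from foxj1.L with that offset (-1.77) and with quantile normalization (-2.66). Over all pairs 36 were called with that offset and 20 with quantile normalization, beside 8 in the main setting. The difference of foxj1.2.L from foxj1.S, which did not pass in any setting, ran from -1.75 with an offset of 0.05 times the median to -0.39 with 1 times. With arrays left out in turn, the settings without an ICD array also taking DBM and HMM as 1 group, the count ran from 62 to 427, with 337 without DBM and 150 without ICD replicate 1. The members ran from -1.93 to -0.66 (foxj1.L), -3.09 to -2.35 (foxj1.S), -4.54 to -3.42 (foxj1.2.L), -4.13 to -2.79 (foxn4.S) and -1.88 to -0.94 (rfx2.S). Without ICD replicate 2 none of the 5 passed (-1.42, -2.59, -3.61, -3.62 and -1.15 in that order, adjusted p of 0.0726 or more). Without ICD replicate 1 foxj1.S and foxj1.2.L passed, and foxj1.L (-1.17), foxn4.S (-3.31) and rfx2.S (-1.67) did not. Motile cilia genes lower with ICD ran from 0 to 20 and intraflagellar transport genes from 0 to 1, and with DBM and HMM as 1 group they were 7 and 0 (38 and 13 at an unadjusted p). Those list counts were chosen after seeing the data. Causes of the other lost calls were not tested.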
